A study of Mus musculus with 6 samples.

Results

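The genes described here are 41 genes of antioxidant defence, glutathione metabolism and the phagocyte NADPH oxidase, taken by symbol from a table of 40481 genes counted in bone marrow-derived macrophages (BMDMs). All 41 symbols were found. *Gstp1* and *Txnrd2* each had a second identifier with no counts in any library, so 43 identifiers carried the symbols and 2 of them were empty. The study compared unstimulated BMDMs of wild-type mice with BMDMs of *Scd2-m/-m* mice, in which a floxed *Scd2* gene, encoding stearoyl-CoA desaturase 2, is removed by lysozyme M-Cre. Each genotype had 3 poly(A)-selected RNA sequencing libraries. Both genotypes were cultured alike, with marrow differentiated for 5 to 6 days in serum and CMG-conditioned medium and then kept in medium with less of the latter, and neither received a stimulus. Lysozyme M-Cre acts in monocytes, macrophages and neutrophils, so deletion begins during differentiation. The labels give no strain, age, sex, mouse or day for a library. The study's methods name adult mice of both sexes, and the sources used here do not give whether the wild-type mice carried floxed alleles or the Cre. *Xist* had 32646 to 48965 counts per library, while the Y-linked *Ddx3y*, *Eif2s3y* and *Kdm5d* had 0 counts in all 6, so the X-linked genes below are compared between libraries alike in these transcripts. Because nothing states that the libraries came from separate mice, the p-values measure the spread between these libraries, which may be technical.

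Macrophages make reactive oxygen species on purpose. The phagocyte NADPH oxidase moves electrons from NADPH to oxygen and so makes superoxide, which superoxide dismutases turn into hydrogen peroxide. Catalase, glutathione peroxidases and peroxiredoxins then remove the peroxide. The latter pair are recharged by glutathione and thioredoxin, both of which are reduced with NADPH, much of it from the pentose phosphate pathway. Many of these enzymes are transcribed by NRF2 (gene *Nfe2l2*), which KEAP1 holds at a low level until electrophiles or oxidants modify it.

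Levels are given in CPM, each gene's counts scaled to a common library total with trimmed mean of M values (TMM) factors, as mean ± SD of 3 libraries. A gene was called when its false discovery rate (FDR) from edgeR's quasi-likelihood test, adjusted by the Benjamini-Hochberg method over the 14778 genes tested, was below 0.05. Changes are log2 fold changes of *Scd2-m/-m* over wild type with a standard error (SE). The library totals ran from 46285176 to 57629638 counts, of which the 41 genes took between 0.910% and 1.05%. *Scd2* itself had 66.9, 77.8 and 62.7 CPM in the wild-type libraries (replicates 1, 2 and 3, the order used throughout) and 59.5, 38.0 and 39.8 CPM in the *Scd2-m/-m* ones, so transcript of the targeted gene was lower in every *Scd2-m/-m* library but not absent, and it missed the threshold (log2 fold change −0.59, SE 0.19, FDR = 0.1002). *Scd2-m/-m* replicate 1 lay just under the lowest wild-type library, and without it *Scd2* was called (log2 fold change −0.83, FDR = 8.87e-05, edgeR).

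Other transcripts moved with genotype as well. All 12 cell division genes listed were higher in *Scd2-m/-m* BMDMs, and their summed level was 52.6 to 62.3 CPM in wild-type and 162 to 174 CPM in *Scd2-m/-m* libraries. Of 15 neutrophil markers, of which 11 were tested, 7 were higher (*Mpo*, *Prtn3*, *Ltf*, *Ngp*, *S100a8*, *S100a9* and *Lcn2*) and *Csf3r* was lower. Their sums overlapped at 186 to 194 and 167 to 200.1 CPM, but *Csf3r* held most of them, and without it the other 14 summed to 24.9 to 28.5 CPM in wild-type and 40.2 to 51.4 CPM in *Scd2-m/-m* libraries. Of 9 monocyte and progenitor markers, of which 8 were tested, 5 were higher and none lower, with sums of 272 to 315 and 333 to 401 CPM. Most of these sums was *Irf8*, which was not called (237 ± 15.1 and 235 ± 5.14 CPM). *Ccr2*, at 47.8 ± 9.57 and 115 ± 30.1 CPM, held most of the rise. Of 9 erythroid markers, 6 had too few counts to be tested and none of the other 3 was called, with sums of 1.55 to 2.30 and 2.03 to 2.72 CPM. Of the 10 macrophage markers, all of them expressed, *Cd68* was higher and *Adgre1*, *Csf1r*, *Mertk* and *Lyz2* were lower, the last of these being the locus that carries the Cre. The 10 summed to 37848 to 39018 CPM in wild-type and 21999 to 22744 CPM in *Scd2-m/-m* libraries, a drop held mostly by *Lyz2*, and the other 9 summed to 15749 to 15819 and 13171 to 13690.3 CPM. B cell markers had 2 of 7 genes (3 tested) higher (sums 2.26 to 3.84 and 5.47 to 7.24 CPM) and dendritic cell markers 2 of 7 (6 tested) higher (sums 1.31 to 1.91 and 2.21 to 3.41 CPM). Megakaryocyte markers had 1 of 6 (3 tested) lower, *Pf4*. No gene was called among the 2 of 8 T and NK cell markers, the 2 of 7 markers of mast cells, basophils and eosinophils and the 3 of 7 fibroblast markers that could be tested. *Ncr1* and *Mcpt4* had no count in any library, and no other marker in the table was at 0 in all of them. The part of these transcripts in the results on the 41 genes was not tested. In bulk RNA, fewer cells of a type cannot be told apart from less RNA per cell.

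Of the 41 genes, all of which passed the filter on low counts, 15 were called, of which 8 rose and 7 fell in *Scd2-m/-m* BMDMs. This is 36.6% of the genes, against 17.5% of all genes tested (9.65% higher and 7.84% lower). Well-expressed genes are called more often, and among genes with a mean of at least 10 CPM the call rate was 21.4%, with 14 of 36 for the genes described here (a level chosen after the values were seen). The genes that rose were *Mgst2*, *Mgst3*, *Prdx4*, *Gpx3*, *Gpx1*, *Gsto1*, *Gstm1* and *G6pdx*. The genes that fell were *Gclm*, *Sod2*, *Blvrb*, *Gclc*, *Txnrd1*, *Cybb* and *Ncf4*. Most shifts were small. The median size of the 15 changes was 0.32 on the log2 scale, and 3 genes, all of them higher, were called with a change above 1.5-fold, against 5.91% of all genes tested. The median log2 fold change of the 41 genes was −0.0330, near the 0.0039 of all genes tested. The genotypes' libraries did not overlap in 22 of the 41 genes, where 34.9% of all genes tested did not overlap. They did not overlap in 14 of the 15 called genes, but being called itself makes this likely, so it adds no support.

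**Figure D1:**
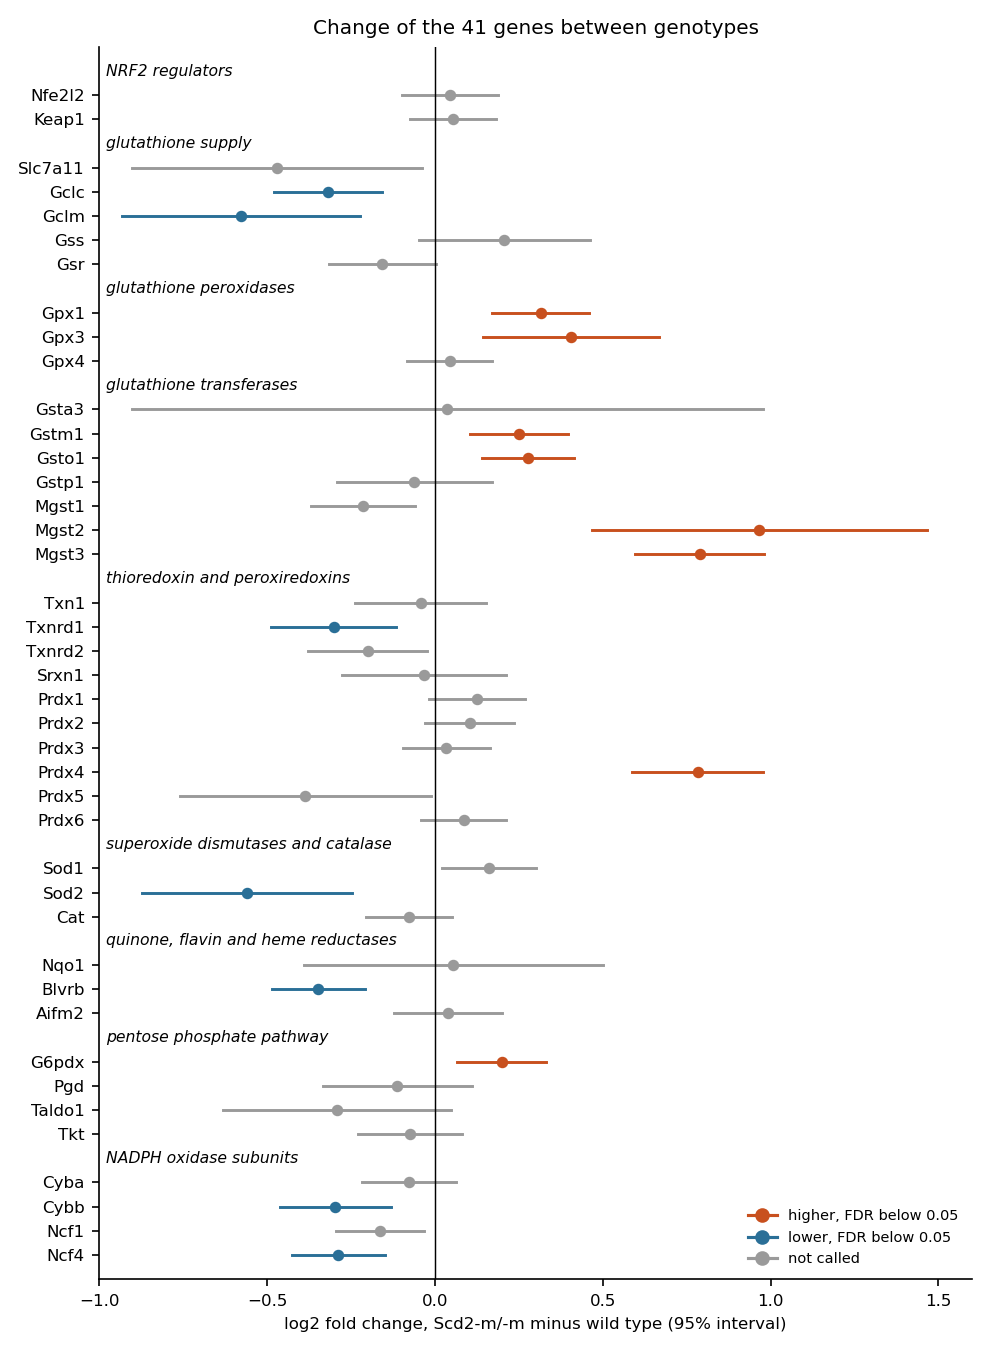
Log2 fold change of each of the 41 genes between *Scd2-m/-m* and wild-type BMDMs (x axis; points, estimates; bars, 95% intervals), grouped by role, with genes at an FDR below 0.05 in colour. The 3 estimates furthest to the right are *Mgst2*, *Mgst3* and *Prdx4*, while 21 of the 26 genes that were not called have intervals within 0.5 of 0 on either side.

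The libraries of one genotype were not alike in these genes. Wild-type replicate 1 was the highest of the wild-type libraries in 31 of the 41 genes, against 36.8% of all genes tested, and in all 7 genes that were called lower. *Scd2-m/-m* replicate 3 was the lowest of its genotype in 32 of the 41 genes, against 37.5% of all genes tested. Without wild-type replicate 1, 13 of the 15 genes stayed called (*Gpx3* and *Txnrd1* did not), and without *Scd2-m/-m* replicate 3, 11 did (*Gclm*, *Gpx3*, *Sod2* and *Txnrd1* did not). The number called was lowest without wild-type replicate 2 (7), without *Scd2-m/-m* replicate 1 (8) and without *Scd2-m/-m* replicate 2 (6), when all genes called numbered 1490, 2567 and 1440 in place of 2585. The genes called in all of these fits were *Gclc*, *Gpx1*, *Mgst2*, *Mgst3*, *Prdx4* and *Blvrb*.

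**Figure D2:**
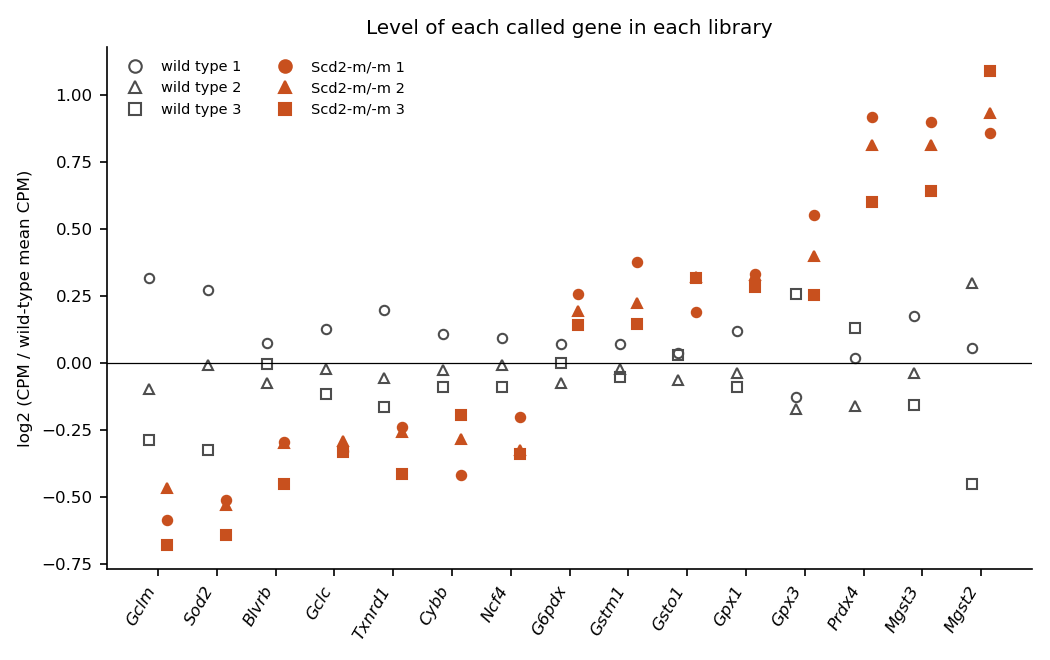
CPM of the 15 called genes in each library over the wild-type mean, on a log2 scale (y axis), ordered by fold change (x axis), with open grey symbols for wild-type and filled orange symbols for *Scd2-m/-m* libraries. The genotypes separate in every gene but *Gpx3*, and wild-type replicate 1 is the highest wild-type library in all 7 genes on the left.

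Neither regulator of the response was called. *Nfe2l2* (ENSMUSG00000015839, minus strand of chromosome 2, 75675513 to 75704641 on GRCm38), which encodes NRF2, had 295, 291 and 294 CPM in wild-type and 279, 298 and 331 CPM in *Scd2-m/-m* libraries. The *Scd2-m/-m* libraries lay on both sides of the wild-type ones, and the log2 fold change was 0.045 (95% interval −0.099 to 0.19, FDR = 0.707, edgeR). *Keap1* (ENSMUSG00000003308, minus strand of chromosome 9, 21229730 to 21239361), its inhibitor, had 59.9, 60.2 and 60.5 CPM and 65.9, 60.2 and 61.4 CPM, again overlapping, with a log2 fold change of 0.054 (95% interval −0.075 to 0.18, FDR = 0.598). The intervals leave room for a change of at most 0.19 on the log2 scale in either gene. They concern transcripts, and NRF2 is controlled mainly through its protein.

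Glutathione supply had its first enzyme lower. Glutamate-cysteine ligase joins glutamate and cysteine, and has a catalytic subunit, *Gclc*, and a modifier subunit, *Gclm*. *Gclc* (ENSMUSG00000032350, plus strand of chromosome 9, 77754535 to 77794485) had 30.02, 27.1 and 25.4 CPM in wild-type and 21.9, 22.5 and 21.8 CPM in *Scd2-m/-m* libraries. The means were 27.5 ± 2.36 and 22.1 ± 0.355 CPM (SD, n = 3), so the gene fell, with a log2 fold change of −0.32 (SE 0.075, FDR = 0.00950, edgeR), and stayed called with each library left out. *Gclm* (ENSMUSG00000028124, plus strand of chromosome 3, 122245557 to 122270732) had 101, 75.6 and 66.3 CPM in wild-type and 53.8, 58.4 and 50.4 CPM in *Scd2-m/-m* libraries. The genotypes did not overlap, though the wild-type libraries were widely spread, with replicate 1 far above the others. Its means were 80.9 ± 17.9 and 54.2 ± 4.03 CPM (SD, n = 3), so the gene fell, with a log2 fold change of −0.58 (SE 0.15, FDR = 0.0391). The call was lost without wild-type replicate 2 or without *Scd2-m/-m* replicate 1, 2 or 3, with log2 fold changes of −0.62, −0.57, −0.63 and −0.53 and FDR values of 0.0726, 0.152, 0.0605 and 0.192 in that order, and without wild-type replicate 1 the fall was smaller but called (log2 fold change −0.39, FDR = 0.00391). Exons of the opposite-strand gene *Gm17494* and of the same-strand gene *Gm6061* overlap *Gclm*, by 296 and 244 bases of its 6291 exonic bases, and how the counting treated strand is not known here.

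The other genes of glutathione supply were not called. *Slc7a11*, which encodes the cystine importer xCT, stood at 2.46 ± 0.349 and 1.77 ± 0.363 CPM, without overlap, with a log2 fold change of −0.47 (95% interval −0.90 to −0.038, FDR = 0.131, edgeR). It passed with limma-voom and quality weights (log2 fold change −0.67, FDR = 0.0132). *Slc3a2*, the heavy chain that xCT shares with other amino acid transporters, fell, from 263 ± 33.2 in wild-type to 175 ± 7.23 CPM (log2 fold change −0.58, SE 0.080, FDR = 2.19e-04). Glutathione synthetase, *Gss*, had 8.29 ± 0.782 and 9.57 ± 1.31 CPM (log2 fold change 0.21, FDR = 0.262). Glutathione reductase, *Gsr*, which recycles oxidized glutathione, had 43.3 ± 3.87 and 38.9 ± 2.03 CPM (log2 fold change −0.16, FDR = 0.175).

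Among the glutathione peroxidases, *Gpx1* and *Gpx3* rose and *Gpx4* was not called. *Gpx1* (ENSMUSG00000063856, plus strand of chromosome 9, 108338903 to 108340343), the abundant cytosolic enzyme that reduces hydrogen peroxide, had 645, 579 and 559 CPM in wild-type and 749, 746 and 722 CPM in *Scd2-m/-m* libraries, so all *Scd2-m/-m* libraries were above all wild-type ones. Between means of 594 ± 45.3 and 739 ± 14.5 CPM (SD, n = 3), the rise amounted to a log2 fold change of 0.31 (SE 0.067, FDR = 0.00518, edgeR), and it was called with each library left out. *Gpx3* (ENSMUSG00000018339, plus strand of chromosome 11, 54902453 to 54910377), a secreted member, had 42.4, 41.1 and 55.4 CPM and 67.8, 61.0 and 55.2 CPM. Wild-type replicate 3 was just above *Scd2-m/-m* replicate 3, which makes *Gpx3* the one called gene whose libraries overlapped. Its log2 fold change was 0.41 (SE 0.12, FDR = 0.0410). It did not stay called without wild-type replicate 1 or 2 or without *Scd2-m/-m* replicate 1, 2 or 3, with log2 fold changes of 0.34, 0.33, 0.33, 0.41 and 0.48 and FDR values of 0.0840, 0.113, 0.141, 0.0957 and 0.0538 in that order. *Gpx4*, which reduces lipid peroxides within membranes, stood at 259 ± 2.79 and 267 ± 14.2 CPM (log2 fold change 0.044, 95% interval −0.084 to 0.17, FDR = 0.675).

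The glutathione transferases held the largest rises. These enzymes conjugate glutathione to electrophiles, and the MAPEG family members *Mgst1*, *Mgst2* and *Mgst3* are membrane proteins. *Mgst3* (ENSMUSG00000026688, minus strand of chromosome 1, 167371966 to 167393841) had 36.5, 31.5 and 29.0 CPM in wild-type and 60.3, 56.9 and 50.5 CPM in *Scd2-m/-m* libraries, with no overlap. Between means of 32.3 ± 3.84 and 55.9 ± 4.98 CPM (SD, n = 3), the rise amounted to a log2 fold change of 0.79 (SE 0.089, FDR = 4.76e-05, edgeR) and stayed between 0.72 and 0.89 with each library left out. *Mgst2* (ENSMUSG00000074604, plus strand of chromosome 3, 51660360 to 51682677), which can also make leukotriene C4, had 1.01, 1.19 and 0.708 CPM and 1.76, 1.85 and 2.06 CPM, resting on 50, 55 and 36 counts in wild-type and 98, 93 and 120 counts in *Scd2-m/-m* libraries. It rose by 0.97 (SE 0.23, FDR = 0.0106) on the log2 scale, with every *Scd2-m/-m* library above every wild-type library, and was called with each library left out. *Mgst1*, the third, was not called. It had 91.3 ± 5.57 and 78.8 ± 6.57 CPM, with no overlap and the *Scd2-m/-m* libraries below, a log2 fold change of −0.21 and an FDR of 0.0554, and it passed with DESeq2 (log2 fold change −0.22, FDR = 0.0438) and when no filter on low counts was used (log2 fold change −0.21, FDR = 0.0204).

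Of the cytosolic transferases, 2 rose. *Gstm1* (ENSMUSG00000058135, minus strand of chromosome 3, 108012255 to 108017973), of the mu class, had 127, 119 and 117 CPM in wild-type and 157, 141 and 134 CPM in *Scd2-m/-m* libraries, a log2 fold change of 0.25 (SE 0.068, FDR = 0.0206, edgeR). The call was lost without wild-type replicate 2 or 3 or without *Scd2-m/-m* replicate 1 or 2, with log2 fold changes of 0.24, 0.22, 0.18 and 0.27 and FDR values of 0.101, 0.0659, 0.0638 and 0.0723 in that order. *Gstm1* had 5499 to 8772 counts per library while its near relatives *Gstm2*, *Gstm3*, *Gstm4*, *Gstm5*, *Gstm6* and *Gstm7* each had at most 445, and reads that fit several family members may have been split between them. *Gsto1* (ENSMUSG00000025068, plus strand of chromosome 19, 47854970 to 47864790), the omega-class enzyme, had 48.5, 45.3 and 48.3 CPM and 53.9, 59.0 and 59.0 CPM. Its libraries did not overlap, and its log2 fold change was 0.28 (SE 0.064, FDR = 0.00868). It missed the threshold without wild-type replicate 2 or without *Scd2-m/-m* replicate 2, with log2 fold changes of 0.24 and 0.26 and FDR values of 0.0671 and 0.0642 in that order. *Gstp1*, of the pi class, was not called at 12.01 ± 1.81 and 11.5 ± 0.420 CPM (log2 fold change −0.062, 95% interval −0.29 to 0.17). *Gsta3* had 10 to 31 counts per library, too few to show any but a large change (log2 fold change 0.037, 95% interval −0.90 to 0.98).

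The peroxiredoxins, thiol enzymes that reduce peroxides with thioredoxin, had 1 called gene among 6, where 17.5% of all genes tested were called. *Prdx4* (ENSMUSG00000025289, minus strand of chromosome X, 155323918 to 155340754), the member found in the endoplasmic reticulum, had 32.3, 28.5 and 35.0 CPM in wild-type and 60.4, 56.1 and 48.4 CPM in *Scd2-m/-m* libraries. The means were 31.9 ± 3.23 and 55.0 ± 6.08 CPM (SD, n = 3), so the gene rose, with a log2 fold change of 0.78 (SE 0.091, FDR = 6.54e-05, edgeR), between 0.71 and 0.87 with each library left out and with no overlap. None of the 5 others was called. The cytosolic *Prdx1* and *Prdx2* had log2 fold changes of 0.13 (FDR = 0.224) and 0.10 (FDR = 0.288), the mitochondrial *Prdx3* 0.033 (FDR = 0.765), and *Prdx6*, which uses glutathione, 0.086 (FDR = 0.362). *Prdx1* and *Prdx2* passed with limma-voom and quality weights (FDR = 0.0189 and 0.0232). *Prdx5* had 563, 438 and 377 CPM in wild-type and 376, 374 and 305 CPM in *Scd2-m/-m* libraries. Its genotypes did not overlap, but wild-type replicate 1 was far above the others and the log2 fold change of −0.39 (SE 0.16) had an FDR of 0.153. It was called without wild-type replicate 3 (log2 fold change −0.51, FDR = 0.0143), with limma-voom and quality weights (log2 fold change −0.28, FDR = 0.0271) and with no filter on low counts (log2 fold change −0.38, FDR = 0.0403).

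In the thioredoxin cycle, *Txnrd1* (ENSMUSG00000020250, plus strand of chromosome 10, 82833951 to 82897712), the cytosolic reductase, had 166, 139.5 and 129 CPM in wild-type and 123, 121 and 109 CPM in *Scd2-m/-m* libraries. It fell by 0.30 on the log2 scale (SE 0.086, FDR = 0.0277, edgeR) without overlap. It did not stay called without wild-type replicate 1 or 2 or without *Scd2-m/-m* replicate 1, 2 or 3, with log2 fold changes of −0.19, −0.33, −0.34, −0.32 and −0.25 and FDR values of 0.0848, 0.0659, 0.0546, 0.0831 and 0.130 in that order. Its substrate thioredoxin, *Txn1*, stood at 193 ± 25.8 and 188 ± 13.8 CPM (log2 fold change −0.043, FDR = 0.797). The mitochondrial reductase, *Txnrd2*, had 15.3 ± 0.418 and 13.3 ± 0.775 CPM with no overlap (log2 fold change −0.20, FDR = 0.113) and passed only with limma-voom and quality weights among the alternatives (log2 fold change −0.21, FDR = 0.0311). *Srxn1*, sulfiredoxin, which repairs over-oxidized peroxiredoxins, was not called at 69.6 ± 11.2 and 68.0 ± 6.42 CPM (log2 fold change −0.033, 95% interval −0.28 to 0.21, FDR = 0.876).

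Of the enzymes that act on superoxide and peroxide directly, the mitochondrial *Sod2* fell. *Sod2* (ENSMUSG00000006818, plus strand of chromosome 17, 13006846 to 13040063) had 382, 314 and 253 CPM in wild-type and 222, 219 and 203 CPM in *Scd2-m/-m* libraries, with means of 316 ± 64.7 and 214 ± 10.3 CPM (SD, n = 3). The *Scd2-m/-m* libraries were close to each other and all below the wild-type libraries, which were spread, with replicate 1 the highest. The log2 fold change was −0.56 (SE 0.13, FDR = 0.0258, edgeR). The call was lost without wild-type replicate 2 or without *Scd2-m/-m* replicate 1, 2 or 3, with log2 fold changes of −0.57, −0.59, −0.57 and −0.52 and FDR values of 0.0712, 0.0929, 0.0641 and 0.155 in that order. Cytosolic *Sod1* had 293 ± 18.2 and 327 ± 16.2 CPM, with the *Scd2-m/-m* libraries above and no overlap, and was not called (log2 fold change 0.16, FDR = 0.112), except with limma-voom and quality weights (log2 fold change 0.25, FDR = 0.00346). Catalase, *Cat*, was not called at 355 ± 17.0 and 337 ± 7.74 CPM (log2 fold change −0.078, FDR = 0.417).

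**Figure D3:**
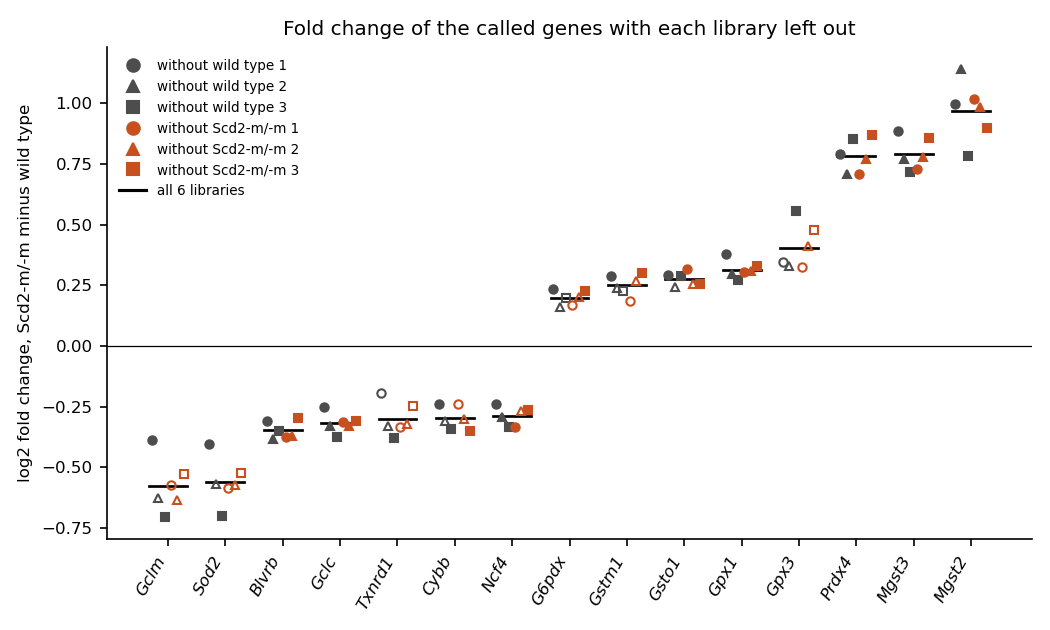
Log2 fold change of the 15 called genes (y axis) with all 6 libraries (black bars) and with each library left out (symbols; filled where the FDR is below 0.05, open where it is not). No gene changes direction, and *Gclc*, *Blvrb*, *Gpx1*, *Prdx4*, *Mgst3* and *Mgst2* are filled in all 6 fits.

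Among the reductases, *Blvrb* (ENSMUSG00000040466, plus strand of chromosome 7, 27447978 to 27466144) encodes an NADPH-dependent flavin and biliverdin reductase. It had 270.0, 244 and 256 CPM in wild-type and 209, 208 and 187 CPM in *Scd2-m/-m* libraries. The means were 256 ± 13.2 and 202 ± 12.3 CPM (SD, n = 3), so the gene fell, with a log2 fold change of −0.35 (SE 0.065, FDR = 0.00207, edgeR), without overlap, and it stayed called with each library left out. *Hmox1*, which makes biliverdin from heme and is a well-known NRF2 target, was not called at 344 ± 19.3 and 349 ± 20.4 CPM (log2 fold change 0.023, FDR = 0.857). The other biliverdin reductase gene, *Blvra*, was not called either, at 64.3 ± 2.87 and 68.5 ± 3.85 CPM (log2 fold change 0.090, FDR = 0.379, edgeR). *Nqo1*, the quinone reductase often read as an NRF2 target, was low in these cells, at 4.49, 2.71 and 2.42 CPM in wild-type and 3.31, 3.58 and 3.11 CPM in *Scd2-m/-m* libraries, which overlapped (log2 fold change 0.055, 95% interval −0.39 to 0.50, FDR = 0.893). *Aifm2*, which encodes the ubiquinone reductase FSP1, stood at 22.1 ± 1.46 and 22.7 ± 1.05 CPM (log2 fold change 0.040, FDR = 0.773).

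Of the 4 genes of the pentose phosphate pathway only the entry enzyme was called, where 17.5% of all genes tested were called. *G6pdx* (ENSMUSG00000031400, minus strand of chromosome X, 74409483 to 74429194), glucose-6-phosphate dehydrogenase, which makes NADPH, had 316, 285 and 300.3 CPM in wild-type and 359, 343 and 331 CPM in *Scd2-m/-m* libraries. It rose by 0.20 on the log2 scale (SE 0.062, FDR = 0.0412, edgeR), the smallest change among the 15, without overlap. It missed the threshold without wild-type replicate 2 or 3 or without *Scd2-m/-m* replicate 1 or 2, with log2 fold changes of 0.16, 0.20, 0.17 and 0.20 and FDR values of 0.222, 0.0821, 0.105 and 0.142 in that order. The opposite-strand gene *Ikbkg* overlaps 418 of its 3080 exonic bases. *Pgd*, which makes NADPH at a later step, had 622 ± 94.9 and 576 ± 48.9 CPM (log2 fold change −0.11, FDR = 0.501). *Tkt* and *Taldo1*, of the part of the pathway that shuffles sugar phosphates, had log2 fold changes of −0.074 (FDR = 0.537) and −0.29 (FDR = 0.228). *Taldo1* passed without wild-type replicate 3 (log2 fold change −0.42, FDR = 0.0189) and with no filter on low counts (log2 fold change −0.29, FDR = 0.0126).

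Of the 4 NADPH oxidase genes, *Cybb* and *Ncf4* fell and *Cyba* and *Ncf1* were not called. The enzyme has a membrane pair, gp91phox (*Cybb*) and p22phox (*Cyba*), and cytosolic subunits, among them p47phox (*Ncf1*) and p40phox (*Ncf4*), that join it on activation. *Cybb* (ENSMUSG00000015340, minus strand of chromosome X, 9435252 to 9487771), the catalytic subunit, had 1958, 1782 and 1707 CPM in wild-type and 1358, 1489.6 and 1587 CPM in *Scd2-m/-m* libraries. The means were 1816 ± 129 and 1478 ± 115 CPM (SD, n = 3), so the gene fell, with a log2 fold change of −0.30 (SE 0.077, FDR = 0.0159, edgeR), with no overlap. It did not stay called without wild-type replicate 2 or without *Scd2-m/-m* replicate 1 or 2, with log2 fold changes of −0.31, −0.24 and −0.30 and FDR values of 0.0596, 0.0562 and 0.0783 in that order. *Ncf4* (ENSMUSG00000071715, plus strand of chromosome 15, 78244801 to 78262580) had 208, 195 and 184 CPM and 169.9, 156 and 155 CPM. It fell by 0.29 on the log2 scale (SE 0.065, FDR = 0.00713), and the call was lost without *Scd2-m/-m* replicate 2, where the log2 fold change was −0.27 and the FDR 0.0611.

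*Ncf1* (ENSMUSG00000015950, minus strand of chromosome 5, 134220053 to 134229625) had 609, 566 and 586 CPM in wild-type and 531, 533 and 507 CPM in *Scd2-m/-m* libraries. All *Scd2-m/-m* libraries were below all wild-type ones, but the log2 fold change of −0.16 (SE 0.061) had an FDR of 0.0800 with edgeR. It was called with DESeq2 (log2 fold change −0.17, FDR = 0.0404) and with limma-voom and quality weights (log2 fold change −0.13, FDR = 0.0473). *Cyba* (ENSMUSG00000006519, minus strand of chromosome 8, 122424776 to 122432930) had 605, 579 and 538 CPM and 565, 547 and 519 CPM, overlapping, and a log2 fold change of −0.077 (95% interval −0.22 to 0.064, FDR = 0.470). *Cybc1*, which encodes a chaperone that the membrane pair needs, fell from 62.8 ± 0.785 to 51.9 ± 3.71 CPM (log2 fold change −0.28, SE 0.065, FDR = 0.00962). Per kilobase of exonic length, the wild-type levels ran from *Cyba* (552 ± 32.8 CPM per kilobase) through *Cybb* (313 ± 22.2), *Ncf1* (160.2 ± 5.89) and *Ncf4* (96.9 ± 6.10), and the *Scd2-m/-m* levels of 524 ± 22.2, 255 ± 19.8, 143 ± 3.98 and 79.3 ± 4.17 kept that order. Neighbours in this order lay further apart than their SDs in both genotypes.

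**Figure D4:**
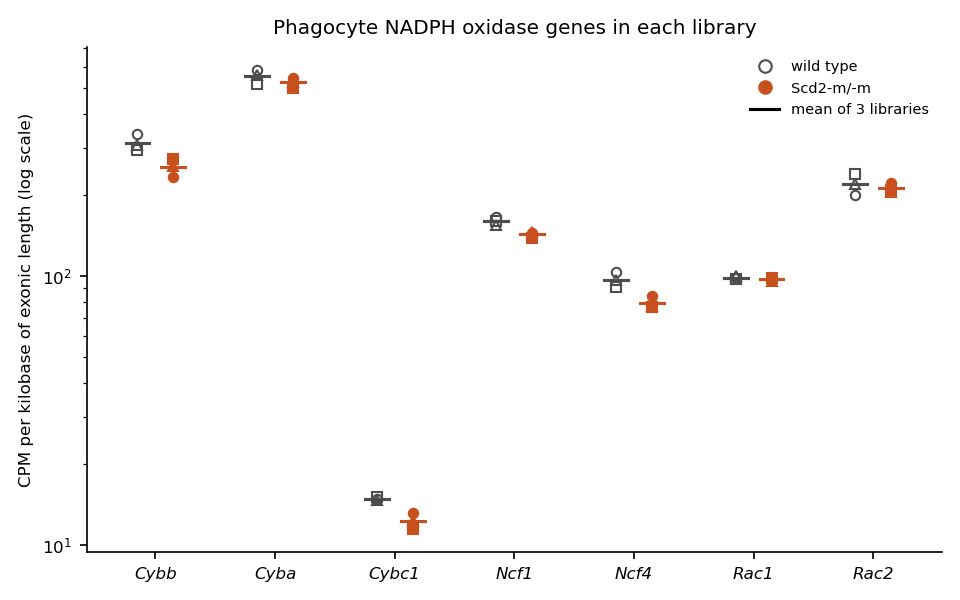
Level per kilobase of exonic length (y axis, log scale) of 7 NADPH oxidase genes (x axis) in each library, with open grey symbols for wild type, filled orange symbols for *Scd2-m/-m* and bars for the mean of 3 libraries. *Cybb*, *Ncf1*, *Ncf4* and *Cybc1* lie lower in all *Scd2-m/-m* libraries, and *Cyba*, *Rac1* and *Rac2* overlap.

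Ratios of partner transcripts within a library do not depend on how libraries are scaled. Of 7 ratios compared (counts per exonic length of one gene over the other), 4 did not overlap between genotypes. An exact permutation test (two-sided) of 3 libraries against 3 cannot go below p = 0.1, which these 4 reached, and no ratio passed after adjustment (adjusted p = 0.175). *Sod2* over *Sod1* was 0.509, 0.457 and 0.326 in wild-type and 0.277, 0.251 and 0.253 in *Scd2-m/-m* libraries, a log2 difference of −0.70 in the mean. *Txnrd1* over *Txn1* was 0.113, 0.107 and 0.115 in wild-type and 0.0922, 0.0930 and 0.0939 in *Scd2-m/-m* libraries. Although wild-type replicate 1 was the highest wild-type library for either gene, their ratio varied little within a genotype, and the log2 difference was −0.26. *Gclm* over *Gclc* was 2.01, 1.67 and 1.56 in wild-type and 1.47, 1.56 and 1.38 in *Scd2-m/-m* libraries (log2 difference −0.24). Wild-type replicate 3 and *Scd2-m/-m* replicate 2 nearly touched, and without wild-type replicate 1 the log2 difference was −0.14. *Cyba* over *Cybb* was 1.73, 1.81 and 1.76 and 2.33, 2.05 and 1.83, a log2 difference of 0.22. *Scd2-m/-m* replicate 3 was barely above wild-type replicate 2, and without *Scd2-m/-m* replicate 1 the log2 difference was 0.13. The other 3 ratios overlapped. Their log2 differences were −0.12 for *Ncf4* over *Ncf1* (p = 0.200, exact permutation test), −0.15 for *Srxn1* over *Prdx1* (p = 0.400, exact permutation test) and −0.012 for *Nfe2l2* over *Keap1*. With each library left out the last of these ran from −0.090 to 0.085, changing sign without *Scd2-m/-m* replicate 1, and that of *Srxn1* over *Prdx1* from −0.23 to −0.047, lowest in size without *Scd2-m/-m* replicate 3.

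**Figure D5:**
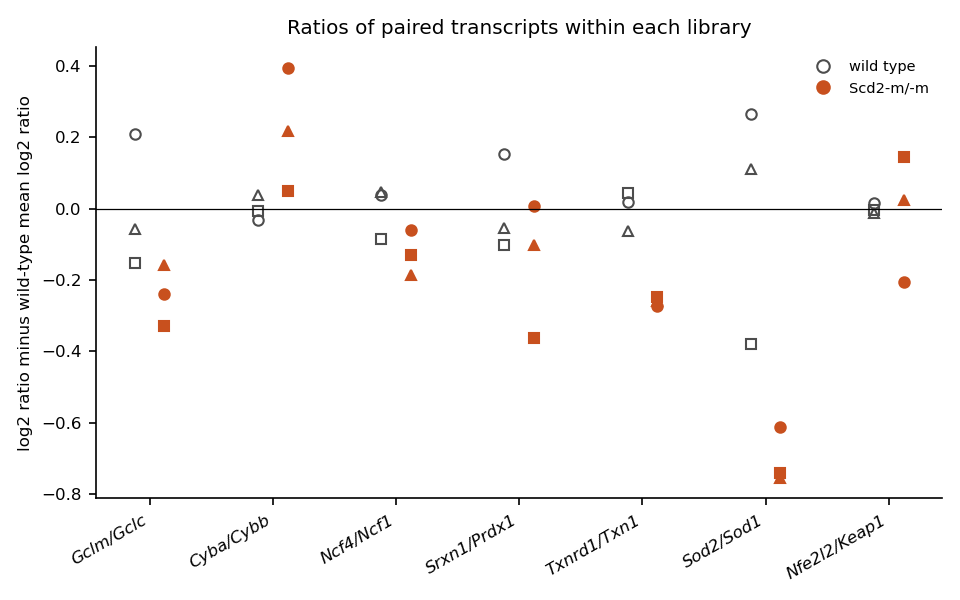
Log2 ratio of 7 pairs of transcripts within each library, minus the wild-type mean (y axis), with open grey symbols for wild type and filled orange symbols for *Scd2-m/-m*. The genotypes separate for *Gclm*/*Gclc*, *Cyba*/*Cybb*, *Txnrd1*/*Txn1* and *Sod2*/*Sod1*, the last with the widest gap between means (−0.70).

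The promoters were searched for the core antioxidant response element that NRF2 binds, TGACNNNGC on either strand, in windows from 250 bases before to 50 after each start site (RefSeq, GRCm38.p6). Windows were given for 37 of the 41 genes, all but *Gclc*, *Gsr*, *Prdx6* and *Ncf4*. The letters occurred in 10 of the 37 genes (27.0%), against 14.0% of all 27025 genes with a window. The list holds many genes already known to carry this element, so a higher share was built into the choice of genes. The 10 were *Nfe2l2*, *Gclm*, *Gsta3*, *Mgst1*, *Txnrd1*, *Srxn1*, *Prdx1*, *Sod1*, *G6pdx* and *Pgd*, so among the called genes with a window the matched ones were *Gclm* and *Txnrd1*, which fell, and *G6pdx*, which rose. The matches of those 3 are given here with that of *Prdx1*, the one gene of the 37 that also matched the stricter TGACTCAGC, whose letters include the AP-1 site TGACTCA. Each is written with 10 bases on either side. Capitals mark the match, which in all 4 lies on the strand opposite to transcription and so reads as its reverse complement, and each sequence is written along the gene's own strand. They lie at chr3:122245413-122245441 (plus strand, *Gclm*), chr10:82859104-82859132 (plus strand, *Txnrd1*, upstream of one of its annotated starts), chrX:74428919-74428947 (minus strand, *G6pdx*, upstream of its RefSeq start but inside the first exon of a longer GENCODE transcript) and chr4:116685456-116685484 (plus strand, *Prdx1*).
Gclm: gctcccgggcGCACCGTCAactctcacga
Txnrd1: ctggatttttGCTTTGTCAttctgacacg
G6pdx: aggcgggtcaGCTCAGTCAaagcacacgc
Prdx1: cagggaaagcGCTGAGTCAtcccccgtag
A match describes letters in a window and does not show a bound site.

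Of 86 other genes of NRF2 signalling, glutathione, thioredoxin, NADPH supply and NADPH oxidases, 74 were tested and 21 were called, 10 higher and 11 lower, against 17.5% of all genes tested. In the NRF2 group, 3 of 14 genes were called, all lower. *Osgin1*, a stress-induced growth inhibitor, fell from 32.7 ± 3.00 to 21.3 ± 0.887 CPM (log2 fold change −0.62, SE 0.078, FDR = 9.19e-05, edgeR). *Mafg*, a small MAF partner of NRF2, fell from 123 ± 4.88 to 98.8 ± 3.67 CPM (−0.32 on the log2 scale, FDR = 0.00206), and *Abcc1*, an exporter of glutathione conjugates, was the other. The ferritin genes *Fth1* and *Ftl1* were not called (log2 fold changes −0.089 and 0.044).

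Of all genes tested, 9.65% were higher and 7.84% lower, the shares to set beside the counts of each group here. In the glutathione group, 5 of 27 genes (22 tested) were higher and 3 lower. *Gstt3* rose from 3.28 ± 0.293 to 5.58 ± 0.504 CPM (log2 fold change 0.77, SE 0.13, FDR = 0.00138, edgeR) and *Gstt2*, its theta-class relative, from 5.33 ± 1.07 to 8.65 ± 0.590 CPM (0.70 on the log2 scale, FDR = 0.00344). *Gstm4*, *Gstk1* and *Gpx7* also rose, and *Slc3a2* (above), *Ggt5* and *Hagh* fell. No glutathione S-transferase gene on either list was called lower in this fit, where 7.84% of all genes tested were. *Mgst1* was called lower with DESeq2, with no filter on low counts and with the replicate number as a block. *Nqo2*, a quinone reductase related to *Nqo1*, rose from 27.1 ± 1.45 to 41.9 ± 1.97 CPM (log2 fold change 0.63, SE 0.068, FDR = 2.71e-05), in a thioredoxin and repair group with 3 of 16 (14 tested) higher and 1 lower. In NADPH supply, 1 of 16 genes (15 tested) was higher and 2 lower. *Idh1*, cytosolic isocitrate dehydrogenase, rose by 0.37 (FDR = 0.00152) on the log2 scale, while *Nadk*, the kinase that makes NADP, fell from 518 ± 6.85 to 409.6 ± 13.1 CPM (log2 fold change −0.34, SE 0.058, FDR = 0.00116). *H6pd*, the dehydrogenase of the endoplasmic reticulum, had log2 fold change −0.47 (FDR = 0.0251). In the oxidase group, 1 of 13 (9 tested) was higher (*Nox1*) and 2 lower (*Cybc1* and *Vav1*).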

How the data were processed

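RNA of unstimulated BMDMs was sequenced in 6 libraries, 3 per genotype, grouped by their labels. Alignment by the authors used STAR and the Ensembl primary assembly (GRCm38), and the counts they deposited are whole numbers of reads for each gene, not normalized. How reads were counted, filtered and assigned to strands was not given in the sources used. Besides *Gclm* and *G6pdx*, opposite-strand exons overlap *Gss* (1102 of 5915 exonic bases), *Keap1* (510 of 4693), *Prdx5* (409 of 2139) and *Ncf1* (408 of 3663). The same holds for *Prdx2* (350 of 3050), *Aifm2* (233 of 4121) and *Txnrd2* (176 of 4401). A deposited table of the authors' own comparison (fold changes, p-values and log2 CPM per library) was not used. Of 40757 entries, 276 repeated a gene and were removed. Counts were tested with edgeR 4.0.16 in R 4.3.3 (filterByExpr, TMM factors of 0.979 to 1.02, robust glmQLFit, glmQLFTest). The SE is the size of the log2 fold change over the square root of F, and 95% intervals use the fitted degrees of freedom. Replicates differed beyond counting error (chi-square of 10.5 to 32.3 per gene), so each counted as 1 sample. Exonic lengths and coordinates are from GENCODE M21 (GRCm38). The fit was tested on simulated data, but only with changes larger than most of those called here, so that test does not cover the smaller ones. Alternatives were RLE and upper-quartile factors, DESeq2 1.42.0, limma-voom (limma 3.58.1) with and without quality weights, other filters and thresholds, the replicate number as a block, and leaving out each library. The genes, lists and tests were chosen with earlier results of these data known. The rule for named genes gave per-library values for every called gene, *Nfe2l2*, *Keap1* and the 4 oxidase subunits, and named called genes of the wider list by smallest p, up to 6 in each direction. Others were named after their values were seen.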

Additional observations from a re-analysis of the deposited data

How the results depend on the processing

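All 15 genes stayed called, in the same direction, with RLE or upper-quartile factors, DESeq2, limma-voom with or without quality weights, both other filters on low counts and the replicate number as a block. Limma-voom with quality weights added 7 of the 41 genes to the 15 and called 4507 genes in all. Of the 7, *Prdx1*, *Prdx2* and *Sod1* were higher and *Ncf1*, *Prdx5*, *Slc7a11* and *Txnrd2* lower. At an FDR below 0.01, 7 of the 41 genes, 1331 of all genes and 11 of the wider list were called. With each library left out, between 6 and 15 of the 41 genes were called (4 to 7 higher, 2 to 9 lower), 3 to 5 of them above 1.5-fold, along with 12 to 21 genes of the wider list and 1440 to 2567 of all genes. The median log2 fold change of the 41 genes then ran from −0.10 (without wild-type replicate 3) to 0.05002 (without wild-type replicate 1). *Scd2* was called with limma-voom (−0.62), with quality weights (−0.82) and without *Scd2-m/-m* replicate 1 (−0.83, of a range of −0.83 to −0.48 with a library left out). The stricter promoter motif was found in 2.70% of the genes with a window, against 0.503% of all, and the choice of genes bears on this share too. The causes were not tested. Libraries of the genotypes share replicate numbers, and the deviations of same-numbered libraries correlated only weakly, at 0.104, −0.0544 and 0.0832. Replicates 1 and 3 of both genotypes correlated best with their own number, and replicate 2 of both did not. The correlations are too weak and mixed to settle whether the numbers pair the libraries. With the replicate block, 19 of the 41 genes were called, 11 of them lower (*Mgst1*, *Ncf1*, *Prdx5* and *Taldo1* added), and 2974 genes in all. No called gene reversed under any alternative run. Genes below 1 CPM, such as *Gsta3*, rest on few counts.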

Other observations

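Some NADPH oxidase and peroxidase genes were near the limit of detection. *Nox1*, a catalytic subunit related to *Cybb*, had 0.363, 0.260 and 0.236 CPM in wild-type and 0.950, 0.855 and 0.981 CPM in *Scd2-m/-m* libraries, a log2 fold change of 1.69 (SE 0.33, FDR = 0.00260, edgeR), with 18, 12 and 12 counts and 53, 43 and 57 counts. *Gpx7*, a peroxidase of the endoplasmic reticulum, had 0.484, 0.412 and 0.295 CPM and 0.753, 0.935 and 1.14 CPM, a log2 fold change of 1.24 (SE 0.32, FDR = 0.0164, edgeR). *Duox2* had 123, 26 and 0 counts in wild-type and 34, 22 and 21 counts in *Scd2-m/-m* libraries, so wild-type replicate 1 alone held most of its wild-type counts (FDR = 0.641, edgeR). These 3 genes were chosen after their values were seen.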
